A study of Homo sapiens with 6 samples.

Results

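Actin filaments, the proteins that bundle and pull on them, and the focal adhesions that tie them to the extracellular matrix are described here as 44 genes, chosen by name from knowledge of the pathway together with earlier results of these data. Of the 44, 41 had at least 1 probe on the array, 62 probes in all, and 36 remained after the dimmest probes were left out. They stand among 12350 genes analysed of 19090 named genes with a probe. The cells were H358, an established human bronchioalveolar carcinoma line, in 2 versions. The first expressed, by its label, YAP(5SA). This is a mutant of YAP, the coactivator that the Hippo kinases restrain, lacking the serines they phosphorylate. The second carried GFP and was labelled as the control. Each received IL-1b, TNFa or vehicle for 60 min, which gave 6 groups of 1 array: YAP(5SA) with IL-1b, YAP(5SA) with TNFa, YAP(5SA) with vehicle, GFP with IL-1b, GFP with TNFa and GFP with vehicle. The cytokine dose is written in a unit that cannot be meant, so it is taken as unknown, and the sources used here name neither the promoter driving the transgene nor the number of clones in each line.

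Cells sense matrix stiffness and shape through actin tension, and YAP is retained in the cytoplasm when filaments are few and enters the nucleus when stress fibres and adhesions form. In the nucleus YAP binds TEAD factors at DNA. A second route runs through MRTFA, which is held by monomeric actin and, once released, joins the DNA-binding factor SRF at CArG boxes in genes of actin, calponin and myosin. Many genes of both routes encode the cytoskeleton itself. The series title asks which genes YAP controls in the presence of the cytokines, and here that question is read for the cytoskeletal genes: how they differed between the lines, and how they responded to each cytokine.

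The values are probe intensities on a linear scale, and differences are given as log2(intensity + 16), a scale that understates changes of dim genes. Median intensity per array lay between 335.2 and 398.1. No condition was repeated, and nothing states that the arrays came from separate cultures. A line difference is a mean of 3 treatment pairs and a cytokine response a mean of 2 line pairs. The limma SE came from a single fit to all arrays, with 2 residual degrees of freedom and 34.3 from a prior over all genes. It was thus set mostly by that prior and says little about a gene's own spread over the pairs. For the lines, PDLIM5 had pairs from -2.44 to -2.37 and an SE of 0.203. ZYX had pairs from -0.91 to 0.42 and an SE of 0.222. The p-values therefore mainly follow the size of a difference. YAP1 itself read 12.31, 12.08 and 11.67 on the log2 scale with IL-1b, TNFa and vehicle in the line labelled YAP(5SA), against 12.88, 12.46 and 12.91 in GFP (limma difference -0.73 ± 0.21 SE, adjusted p = 0.0120). Where in the transcript that probe sits is unknown, so it checks nothing about the label. Epithelial keratin KRT18 read 176417 to 225436 in YAP(5SA) and 100742 to 141557 in GFP, while keratin KRT19 read 15.97 to 37.1 in YAP(5SA) and 196.7 to 260.8 in GFP. In bulk RNA, fewer cells of a type and less RNA per cell cannot be told apart.

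Of the 36 analysed genes, 8 were higher and 1 was lower in the YAP(5SA) line (limma, Benjamini-Hochberg adjusted p under 0.05 over all 12350 genes). Over all genes, 7.9% were called higher and 8.91% lower. LIMA1, an actin filament stabiliser, was higher by the largest amount, followed by the calponin-family gene TAGLN, the actin ACTA2, the myosin kinase MYLK, the adhesion adaptor PXN, the myosin heavy chain MYH9, the formin DIAPH3 and the crosslinker ACTN1. PDLIM5, a PDZ and LIM domain protein of stress fibres and muscle Z-lines, was the 1 gene called lower. The other 27 analysed genes, among them the cytoplasmic actins ACTB and ACTG1, all measured tropomyosins and the ERM proteins, did not pass. The median line difference was 0.30 over the 36 genes and -0.01 over all genes.

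**Figure D1:**
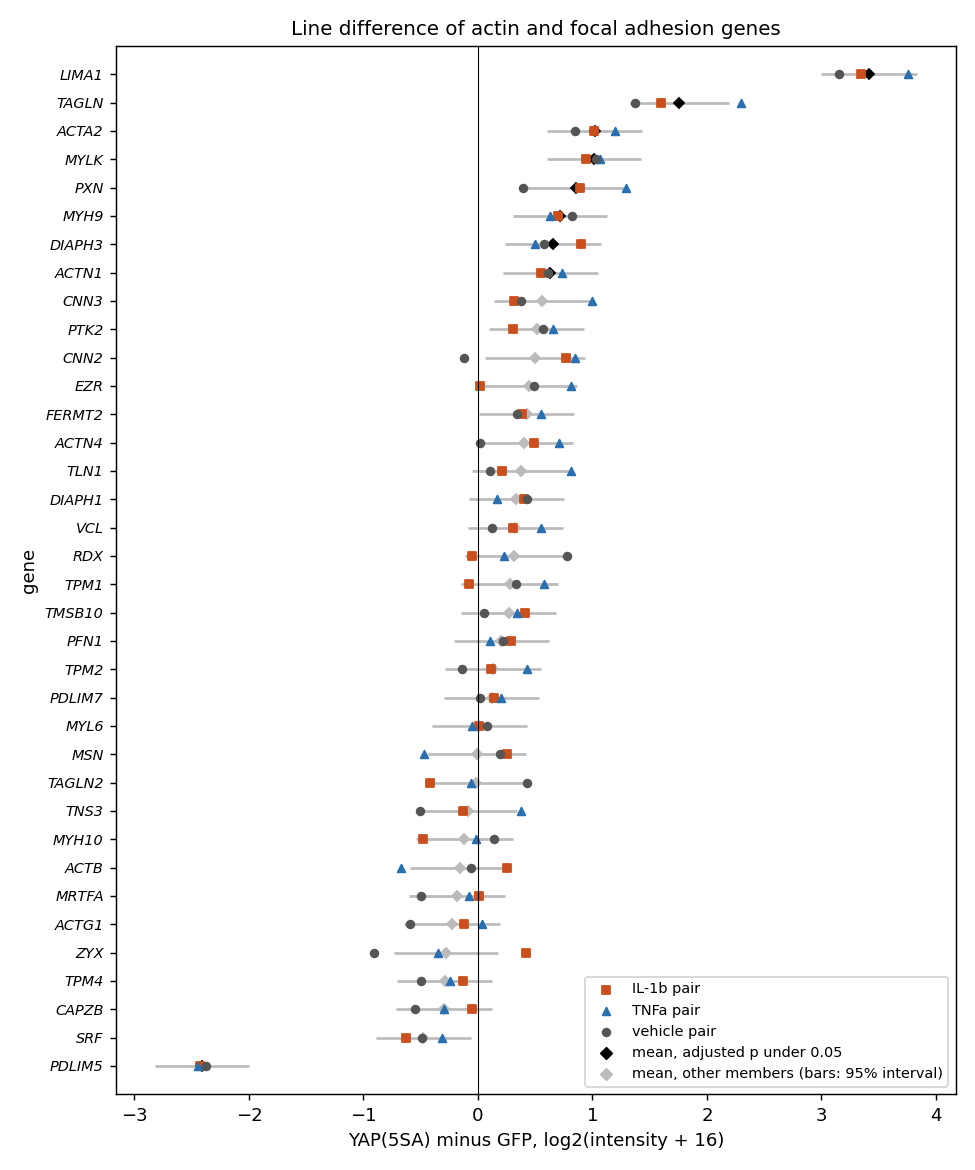
Line difference, YAP(5SA) minus GFP in log2(intensity + 16), for the 36 analysed genes, with the IL-1b, TNFa and vehicle pairs as coloured points and the mean with its 95% interval as a diamond and bar. LIMA1 (3.42) and PDLIM5 (-2.41) lie apart from the rest, and black diamonds mark the 9 genes past the threshold.

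Sequences upstream of the raised genes are shown because the factors named above read short DNA motifs. The genes share the direction of the line difference by which they were picked, while their IL-1b responses had both signs. Promoter windows of 300 bases (250 before to 50 after an annotated start, RefSeq, GRCh38.p14) were found for 40 of the 44 genes, and for 7 of the 8 raised ones; ACTB, MYL9, PTK2 and TAGLN had no entry. They were searched on both strands for CATTCC, the core of the M-CAT element read by TEAD factors, for the CArG box of SRF, and for TGANTCA, the AP-1 site. The CArG box was searched as CCWWWWWWGG, where W is A or T. Each of the 7 raised genes had CATTCC, on 1 strand or the other, in 1 of its windows. In LIMA1, ACTA2, PXN, DIAPH3 and ACTN1 the window farthest upstream in the gene held none. The stretches printed for them come from starts further downstream, and which starts these cells use is not known here. Capitals mark CATTCC or its complement GGAATG and, in ACTN1 and MYLK, also a CArG box. All 7 genes lie on the minus strand, each sequence is written 5′ to 3′ along the gene, and positions count from the start, with -1 the last base before it.
LIMA1: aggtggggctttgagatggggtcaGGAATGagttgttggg
ACTA2: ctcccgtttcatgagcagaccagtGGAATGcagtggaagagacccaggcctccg
MYLK: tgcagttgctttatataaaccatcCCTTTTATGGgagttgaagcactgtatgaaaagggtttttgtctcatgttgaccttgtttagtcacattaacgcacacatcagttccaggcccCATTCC
PXN: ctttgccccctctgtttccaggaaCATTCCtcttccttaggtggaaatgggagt
MYH9: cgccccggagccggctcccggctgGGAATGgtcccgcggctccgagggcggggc
DIAPH3: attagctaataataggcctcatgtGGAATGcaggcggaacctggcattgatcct
ACTN1: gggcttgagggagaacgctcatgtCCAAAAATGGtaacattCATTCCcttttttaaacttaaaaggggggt

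The stretches lie at chr12:50202174-50202213 for LIMA1, chr10:88952927-88952980 for ACTA2, chr3:123620544-123620666 for MYLK, chr12:120250201-120250254 for PXN, chr22:36388008-36388061 for MYH9, chr13:60013191-60013244 for DIAPH3 and chr14:68977691-68977761 for ACTN1. All are upstream of an annotated start except the last bases of MYLK, where CATTCC runs from position -1 to 5. The match nearest upstream of a start was that of LIMA1, from -16 to -11, and the farthest that of ACTA2, from -183 to -178. In ACTN1 the CArG box (-171 to -162) and CATTCC (-154 to -149) stand close together without overlap. In MYLK the CArG box lies at -94 to -85. Whether that MYLK start belongs to a transcript encoding the kinase was not checked.

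Most of these genes have several starts, which gives more chances of a match: the 7 raised genes had 14 windows, of which 7 held CATTCC. Of the 38 windows of members that were not called, 4 held it (10.5%), and of all 35116 windows 14.0%. By gene, CATTCC stood in 13 of the 40 members (32.5%), in 7 of the 7 raised ones and in 4 of 25 uncalled ones. It stood in 21.9% of the 782 raised genes with a window in the whole table and in 16.7% of all genes. The single window of PDLIM5 held none of the 3 motifs. The CArG box was found in 8 of the 40 genes, against 1.6% of all genes, and in 2 of 7 raised and 4 of 25 uncalled members. Besides ACTN1 and MYLK it stood in ACTG1, ACTG2, CNN2, FLNA, SRF and TPM4. Only exact matches were counted, so a gene not listed may still hold a variant of the box. TGANTCA was in 3 of the 40 genes (7.5%) and in 9.37% of all genes, and in none of the 7 raised ones. A match is a run of letters in this window and not evidence of binding. Genes and motifs were chosen with earlier results of these data known, so the shares are a description. A link to TEAD or SRF was not tested.

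Among the actins, which form the filament itself, only the smooth muscle alpha-actin ACTA2 passed the test. Its intensity was 12034, 9851 and 9393 with IL-1b, TNFa and vehicle in YAP(5SA), against 5965, 4285 and 5211 in GFP. Every YAP(5SA) array lay above every GFP array, with a log2 difference of 1.02 ± 0.20 (limma SE, 3 pairs, adjusted p = 0.000231). Beta-actin ACTB read 273845, 119905 and 235886 in YAP(5SA) and 229289, 191182 and 245391 in GFP, and the ranges overlapped widely (difference -0.16, 95% interval -0.59 to 0.27). Gamma-actin ACTG1 likewise overlapped, with -0.23 (95% interval -0.65 to 0.19). ACTG2, the enteric actin, read 39.9 to 56.2 in YAP(5SA) and 41.5 to 53.5 in GFP and was too dim to be analysed. Actin mRNAs share much of their coding sequence, and how far each probe separates them is not known here.

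The calponin family binds along actin filaments, and some of its members mark contractile cells. TAGLN, transgelin, read 2421, 1944 and 1728 with IL-1b, TNFa and vehicle in YAP(5SA), against 787, 382 and 658 in GFP. The lines did not overlap, and the log2 difference was 1.76 ± 0.21 (limma SE, 3 pairs, adjusted p = 3.05e-08), or 3.38-fold. Calponin CNN1 also read higher on every YAP(5SA) array, at 138.1, 162.9 and 250.1 against 72.8, 79.8 and 120.9 in GFP, but fell below the filter; without that filter it was called. CNN3 gave 0.56 (adjusted p = 0.0614) and CNN2 0.50 (adjusted p = 0.124), neither past the threshold, while TAGLN2 lay at -0.01 with overlapping lines. Both CNN2 and CNN3 passed when arrays were centred on their medians.

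TAGLN and ACTA2 also mark smooth muscle and activated fibroblasts, so other markers of those cells were read beside them. The smooth muscle genes MYH11, DES and LMOD1 read 17.1 to 96.4 over all 6 arrays, below the filter, and of the analysed markers SYNM was lower in YAP(5SA) (-0.76) and SMTN gave 0.41 without passing. The 5 smooth muscle markers summed to 1941 to 3841 in YAP(5SA) and 3934 to 4552 in GFP. Most of that sum was SYNM alone, at 1316 to 2993 in YAP(5SA) and 3346 to 3990 in GFP. Of 6 fibroblast markers, 2 were analysed and PDGFRB rose (1.10), whereas COL1A2, COL3A1, DCN and LUM read -13.8 to 83.3 in YAP(5SA) and 6.6 to 160.7 in GFP. The fibroblast markers summed to 1359 to 1828 in YAP(5SA) and 1701 to 2138 in GFP. Most of that sum was COL1A1, at 892 to 1377 in YAP(5SA) and 1312 to 1696 in GFP, which did not pass (-0.41). Each sum thus mainly follows 1 gene. Of the 5 epithelial markers analysed, CDH1 and KRT18 rose and EPCAM fell. No endothelial marker of 2 analysed passed, and of 2 leukocyte markers CD14 fell.

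**Figure D2:**
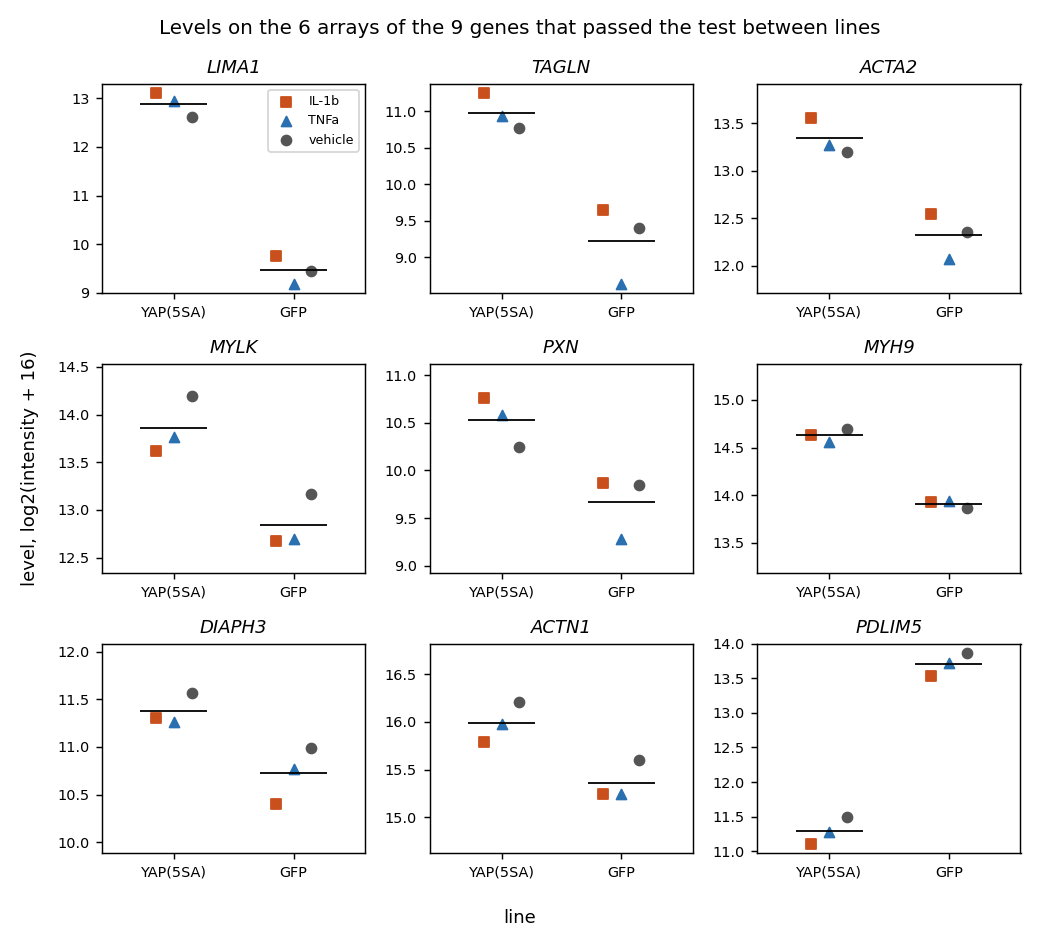
Levels in log2(intensity + 16) on each of the 6 arrays for the 9 genes past the threshold, YAP(5SA) left and GFP right, with IL-1b, TNFa and vehicle as points and the line's mean as a bar. In none of the 9 panels do the lines overlap, and PDLIM5 alone is lower in YAP(5SA). The genes were picked by the test on these same arrays, so this separation is no further support. Over all genes, 13.8% had the YAP(5SA) arrays all above the GFP arrays and 14.4% all below.

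Focal adhesion and LIM domain genes held both extremes. LIMA1, also known as EPLIN, crosslinks and stabilises filaments and links cadherin complexes to actin. It read 8787, 7843 and 6214 with IL-1b, TNFa and vehicle in YAP(5SA), against 852, 567 and 683 in GFP. That is a gap of more than the spread within either line, with a log2 difference of 3.42 ± 0.21 (limma SE, 3 pairs, adjusted p = 4.58e-16), or 10.7-fold. PXN, paxillin, a docking protein of adhesions, read 1718, 1512 and 1195 in YAP(5SA) against 919, 607 and 908 in GFP. Its difference of 0.86 ± 0.21 (limma adjusted p = 0.00275) was smallest in the vehicle pair (0.39) and largest in the TNFa pair (1.29).

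PDLIM5 read 2194, 2478 and 2870 with IL-1b, TNFa and vehicle in YAP(5SA), against 11845, 13530 and 14918 in GFP. On the log2 scale this was -2.41 ± 0.20 (limma SE, 3 pairs, adjusted p = 3.98e-12). The IL-1b, TNFa and vehicle pairs were nearly equal, at -2.42, -2.44 and -2.37. A second probe of PDLIM5 gave -2.91, and the dimmest probe, which read 164.0 to 205.4 in YAP(5SA) and 165.0 to 235.4 in GFP, gave -0.14. Its relative PDLIM7 gave 0.12 (95% interval -0.29 to 0.53) and did not pass.

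Most of the adhesion core did not pass the test. Talin TLN1, which couples integrins to actin, gave 0.38, vinculin VCL, which reinforces that link, 0.33, the integrin activator FERMT2 0.43 and the focal adhesion kinase PTK2 0.51 (limma adjusted p = 0.260, 0.332, 0.172 and 0.0870). The intervals reach 0.80, 0.74, 0.84 and 0.93, so a difference of that size is not excluded for any of them. PTK2 and FERMT2 nonetheless had every YAP(5SA) array above every GFP array, and PTK2 passed with arrays centred on their medians. Zyxin ZYX gave -0.28 and tensin TNS3 -0.09, with pairs of opposite sign. Tensin TNS1 was read by 2 probes, both below the filter, with mean differences of -0.15 and -0.33.

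Non-muscle myosin II pulls on the filaments, and MYLK switches it on by phosphorylating its light chain. MYLK read 12584, 13914 and 18725 with IL-1b, TNFa and vehicle in YAP(5SA), against 6532, 6631 and 9146 in GFP, a difference of 1.01 ± 0.20 that was close in all 3 pairs (0.94 to 1.07; limma adjusted p = 0.000225). MYH9, the heavy chain of myosin IIA, read 25326, 24164 and 26464 in YAP(5SA) against 15559, 15647 and 14959 in GFP (0.72 ± 0.20, limma adjusted p = 0.0100). The other heavy chain, MYH10 of myosin IIB, gave -0.12 with overlapping lines. The essential light chain MYL6 gave 0.01, and the regulatory light chain MYL9 read 109.6 to 210.0 in YAP(5SA) and 120.3 to 218.4 in GFP, below the filter.

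Crosslinkers and filament turnover made up the remaining calls. ACTN1, which bundles stress fibres, read 56806, 64434 and 75631 with IL-1b, TNFa and vehicle in YAP(5SA), against 38763, 38670 and 49550 in GFP. The lines did not overlap (0.63 ± 0.20, limma adjusted p = 0.0258), but the call was lost whichever array was left out. Its paralogue ACTN4 gave 0.40 and did not pass. DIAPH3, a formin that nucleates and elongates filaments, read 2506, 2446 and 3018 in YAP(5SA) against 1340, 1728 and 2022 in GFP (0.66 ± 0.21, limma adjusted p = 0.0212). DIAPH1 gave 0.33 (95% interval -0.08 to 0.75), profilin PFN1 0.20, the monomer-binding TMSB10 0.27 and the capping subunit CAPZB -0.30, with no call among them. Cofilin CFL1, which severs filaments in nearly all cell types, was read by a probe at 18.3 to 37.1 in YAP(5SA) and 6.4 to 39.7 in GFP, near the floor of the scale, so it has no usable value here. FLNA, FLNC and TPM3 had no probe in the annotation used.

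Without the IL-1b pair the number of genes called higher was 4 in place of 8, and PXN, MYH9, DIAPH3 and ACTN1 were those lost. The number of all genes called higher was 497 in place of 976 in that fit. The differences of the 4 genes were 0.84, 0.72, 0.54 and 0.67 there, against 0.86, 0.72, 0.66 and 0.63 with all arrays, and their limma SE was 0.32. LIMA1, TAGLN, ACTA2, MYLK and PDLIM5 passed in all 6 fits that left out an array and in all 10 other settings tried. Leaving out either array of a treatment pair gives the same line difference, so those 6 are 3 distinct fits.

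Neither transcription factor of the SRF route passed the test. SRF read 1254, 1502 and 1287 with IL-1b, TNFa and vehicle in YAP(5SA), against 1949, 1868 and 1812 in GFP. All 3 YAP(5SA) arrays lay below the GFP arrays, but the difference of -0.48 did not pass (limma adjusted p = 0.117, 95% interval -0.89 to -0.06). MRTFA gave -0.19 with overlapping lines. The ERM genes, which tie actin to the membrane, gave 0.44 for EZR, 0.32 for RDX and -0.01 for MSN, none past the threshold.

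Read array by array, 16 of the 36 genes had all 3 YAP(5SA) arrays above all 3 GFP arrays and 4 had them all below, against 13.8% and 14.4% of all genes. Of the genes that did not pass, 6 had an unadjusted limma p under 0.05: CNN3, PTK2, CNN2, EZR and FERMT2 higher, and SRF lower. Together with those that passed, 15 of the 36 had such a p, as did 3272 of all 12350 genes. The median over the 36 genes was 0.27, 0.40 and 0.16 in the IL-1b, TNFa and vehicle pairs, while the median of all genes was -0.07, 0.17 and -0.10. Relative to all genes, the cytoskeletal median was thus 0.34, 0.24 and 0.26. Over all genes 976 were called higher and 1101 lower; with arrays centred on their medians the split was 1430 and 964, and 11 of the cytoskeletal genes were called higher and 1 lower.

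Several genes were read by more than 1 probe, and the probes of a gene did not always give the same value. Of 12 genes with several probes above the filter, 11 had probes with the same sign of the line difference; the exception was TPM2, whose 4 probes gave 0.13, 0.32, 0.00 and -0.25. In a fit with every probe as a row of its own (7.56% of 15536 probes called higher and 9.02% lower), TPM1 and MYL6 were called through a dimmer probe. The second TPM1 probe read 4602, 3353 and 4034 with IL-1b, TNFa and vehicle in YAP(5SA), against 2531, 1775 and 2633 in GFP (0.79, limma adjusted p = 0.00405), while the brightest probe gave 0.28 and the third 0.18. The second MYL6 probe read 63770, 61674 and 68198 in YAP(5SA) against 38796, 45427 and 37759 in GFP (0.67, limma adjusted p = 0.0175), and the brightest gave 0.01. TPM1 and MYL6 are both spliced into several isoforms, but which transcripts each probe reads is not known here. For MYLK both probes were called, at 1.01 and 0.70. For ACTN1 the second probe gave 0.30 and did not pass.

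**Figure D3:**
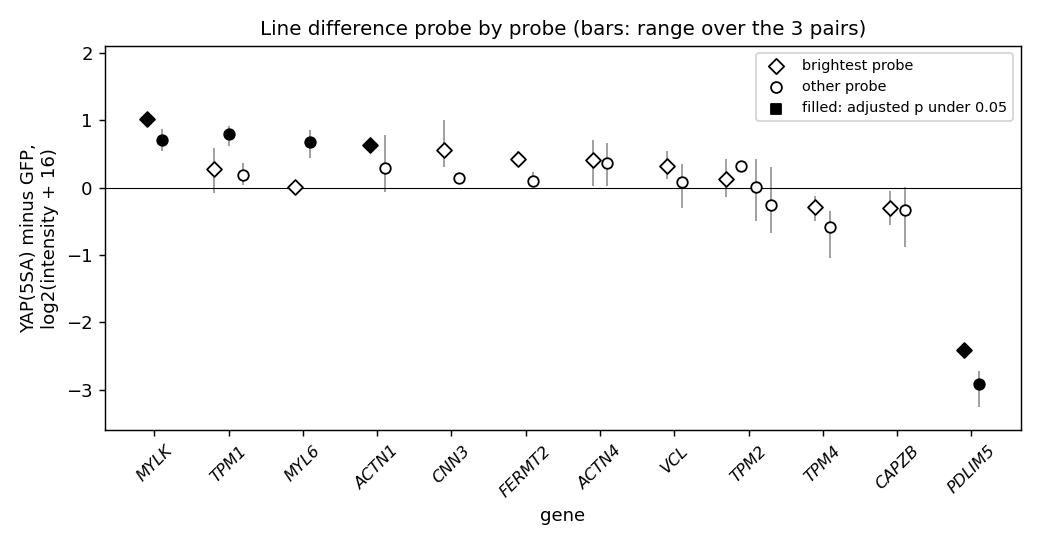
Line difference, YAP(5SA) minus GFP in log2(intensity + 16), for each probe above the filter of the 12 genes with several such probes, with diamonds for the brightest probe, circles for the others and bars for the range over the 3 pairs. Filled symbols passed the threshold; for TPM1 and MYL6 that is a dimmer probe and not the brightest.

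Related actin regulators outside the 44 genes gave a mixed picture. The lists were chosen with earlier results of these data known, so their counts are a description. Of 75 such genes, 61 were analysed, and 13 were higher and 5 lower in YAP(5SA), with a median of 0.10. Over all genes 7.9% were called higher and 8.91% lower, with a median of -0.01, so the count called lower was near that share. Of 16 other adhesion adaptors 4 rose, with FHL2 (1.59), TES (1.10) and BCAR1 (0.94) in front, and the kinase SRC fell by 0.92. Among 15 other actin-binding genes 2 rose, CORO1C (1.25) and the bundler FSCN1 (0.87), and 3 fell, including the severing protein GSN (-2.42) and the microvillar bundler PLS1 (-1.28). Branched nucleation by Arp2/3 and its activators held 1 call among 13, WASL, which fell by 0.72. A list of SRF-MRTF targets held 15 genes, 6 of which belong to the 44. Of the 15, 14 had a probe and 9 were analysed, the rest being too dim. Of those 9, 5 rose and 0 fell: TAGLN and ACTA2, already given above, and CCN1 (1.16), FOSL1 (0.87) and CCN2 (0.68). Several of these are also known YAP targets.

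After 60 min of cytokine, 1 cytoskeletal gene passed the test, the membrane linker RDX, and it did so with IL-1b. With IL-1b 1 of the 36 was called higher and 0 lower, against 1.32% and 1.04% of all genes. An unadjusted limma p under 0.05 was found for 4 of the 36 and for 1862 of all 12350 genes. With TNFa 0 were called in either direction (limma), against 0.688% of all genes called higher and 0.081% lower. Here 2 of the 36 had an unadjusted limma p under 0.05, and 551 of all 12350 genes. Median responses were 0.05 and -0.08, close to the 0.03 and -0.05 of all genes. Both comparisons use the same vehicle arrays.

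RDX, radixin, which anchors actin to the membrane, was the gene called with IL-1b. In the YAP(5SA) line it read 1184 with IL-1b, 1021 with TNFa and 757.4 with vehicle, and in GFP 1228 with IL-1b, 871.9 with TNFa and 435.4 with vehicle. The vehicle array was the lowest in both lines, and the GFP vehicle array was the lowest of all 6. The IL-1b response was 1.05 ± 0.26 (limma SE, 2 pairs, adjusted p = 0.0220), made of 0.63 in YAP(5SA) and 1.46 in GFP. With TNFa it was 0.70 (adjusted p = 0.528). The IL-1b call was lost when either GFP array of that comparison was left out (0.70 without vehicle and 0.77 without IL-1b), when the IL-1b array of YAP(5SA) was left out (1.32), and when dim probes were kept (adjusted p = 0.199).

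**Figure D4:**
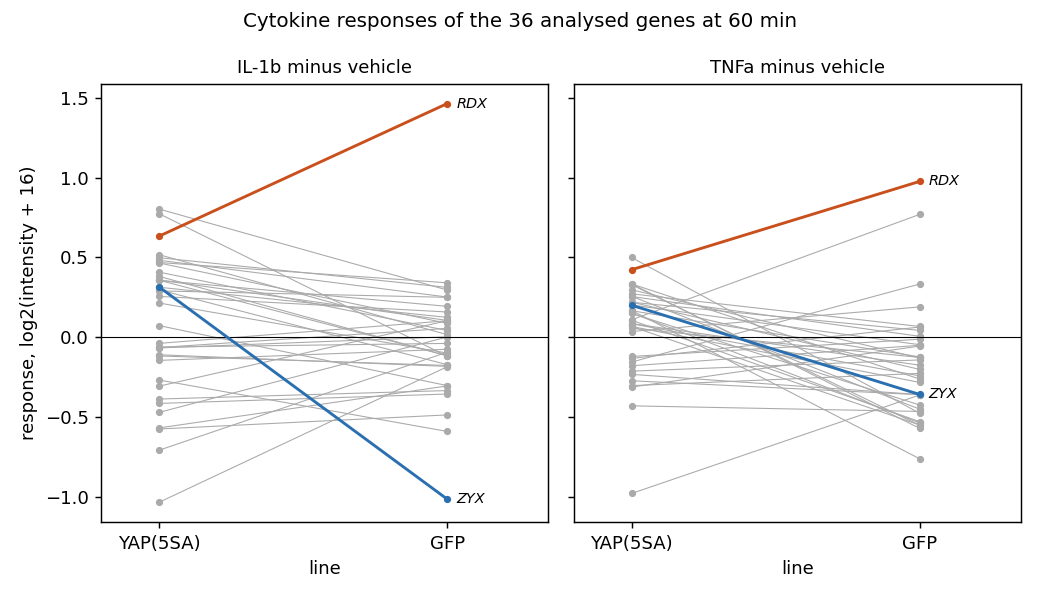
Response to IL-1b (left) and TNFa (right), cytokine minus vehicle in log2(intensity + 16), for the 36 analysed genes, each a line joining its value in YAP(5SA) to that in GFP. RDX lies above 0 in both lines, and ZYX lies at 0.32 with IL-1b in YAP(5SA) and at -1.01 in GFP.

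Cytokine responses of the 5 genes with the largest line differences did not pass the test. LIMA1 responded to IL-1b by 0.41, TAGLN by 0.37, ACTA2 by 0.28, MYLK by -0.53 and PDLIM5 by -0.36. With TNFa the values were 0.04, -0.30, -0.11, -0.45 and -0.18. ACTB had the lowest TNFa response of the 36, at -0.67 (limma adjusted p = 0.636), and its lowest reading was the YAP(5SA) TNFa array.

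Whether the lines answered a cytokine differently could not be tested, since each condition had 1 array, so sizes alone are given. For IL-1b, 1 of the 36 genes differed by at least 1 on the log2 scale, against 2.13% of all genes, and for TNFa none did, against 9.26% of all genes. The gene was ZYX, zyxin, which repairs strained stress fibres. It read 1274 with IL-1b and 1020 with vehicle in YAP(5SA), against 948.4 with IL-1b and 1928 with vehicle in GFP, so the responses were 0.32 and -1.01 and their difference 1.33. For TNFa the largest difference in size was 0.97, for CNN2, followed by TAGLN (0.93) and PXN (0.90). The median of all genes was itself 0.26 for that comparison, made of median responses of 0.09 in YAP(5SA) and -0.19 in GFP.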

How the data were processed

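The deposited values were linear probe intensities from 1-colour Cy5 arrays; the authors had subtracted background, since 10 to 1146 probes per array lay below 0. No source used here gives the scanner, background method or scaling. Per the labels' protocols, RNA was amplified to antisense RNA before labelling. Of 28264 probes, 25893 carried 1 gene in the platform annotation, updated to RefSeq symbols. Values below 0 were set to 0, 16 was added and log2 taken. Named probes in the dimmest 40% by mean were dropped, and each gene was read by its brightest remaining probe. limma 3.58.1 in R 4.3.3 fitted treatment and line additively to all 6 arrays (2 residual degrees of freedom, 34.3 from the prior), with Benjamini-Hochberg adjustment over 12350 genes; intervals are 95%. The members, lists and motifs were chosen with earlier results of these data known. Genes past the threshold, or with a difference in response of at least 1, are given in full, others by role. Simulated data over 12350 genes had 200 changed genes and independent noise drawn from the fitted prior. They held no shifts of whole arrays and no differences in response between lines. For the line difference, 91% of changes of 1 on the log2 scale were recovered, with 9 false calls. The shares were 71% for the IL-1b response (11 false calls) and 51% for the TNFa response (5 false calls). These counts of false calls do not carry over to the deposited arrays. The result of 1 list of related genes is not reported here.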

Additional observations from a re-analysis of the deposited data

Results flagged for a closer look

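ZYX was singled out because its IL-1b response had opposite signs in the lines, 0.32 in YAP(5SA) and -1.01 in GFP, with a difference of 1.33 on the log2 scale. The difference was not tested, since each condition had 1 array. It ranged from 1.28 (pseudocount 64) to 1.36 (arrays centred on their medians) over 8 processing alternatives. With 1 probe, changes of filter or of probe choice could not move the difference, which stayed at 1.33. All alternatives reuse the same arrays, so the range says nothing about how far repeat arrays would vary. ZYX was read by 1 probe, and its GFP vehicle reading of 1928 was the highest of the 6.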

How the results depend on the processing

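The line difference kept its direction for all 9 called genes in every alternative run (10 settings, and 6 fits that each left out 1 array). Dropping 1 array of a treatment pair or the other gives the same fit for the lines. The count of genes called higher ranged from 4 to 8 in the fits without 1 array, against 8, and the count called lower was 1 throughout. ACTN1 was called in 7 of the 10 other settings and DIAPH3 in 8. With IL-1b the count of genes called higher was 0, in place of 1, with no filter on dim probes, with probes averaged per gene and with treatment alone, and 0 to 1 in the fits without 1 array. With a size limit of 0.5 in place of 1, 7 genes differed between lines in the IL-1b response and 14 in the TNFa response, against 1 and 0 of the 36; at that limit stood 24.5% of all genes for IL-1b and 45.8% for TNFa. Over all genes, 2077 were called between lines (1383 to 2576 over the settings, 1023 to 2300 without 1 array), 292 with IL-1b (4 to 692, and 58 to 692) and 95 with TNFa (3 to 109, and 50 to 129). The IL-1b split of 163 higher and 129 lower became 138 and 163 with arrays centred on their medians. The labels carry no replicate numbers to pair by; the fit pairs arrays by treatment for the lines and by line for a cytokine. The number of arrays limits the precision, and the table holds no detection flags.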
